A study of Mus musculus with 8 samples.

Results

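The 53 genes described here encode proteins of the actin cytoskeleton and the transcription factor that controls many of them, SRF, with its coactivators. They form a list of gene symbols, matched to the gene names in the array files, and the actin genes themselves are left out of it. Of the 53, 47 are called measured, since in 1 group or more both arrays read a probe of theirs well above background, out of 13848 genes and unnamed features tested. The 6 others were Evl, Fhl2, Cnn1, Cnn3, Tpm2 and Myl9. None of these 6 reached that in any group.

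Actin filaments grow from monomers that profilins and thymosins carry, branch at the Arp2/3 complex, are capped and severed by capping proteins, gelsolin and cofilins, and are held together by tropomyosins, calponins, filamin and alpha-actinins. SRF binds a DNA element called the CArG box. Its coactivators Mkl1 and Mkl2, named Mrtfa and Mrtfb today, are kept out of the nucleus by binding actin monomers and enter it when filaments grow. The chemokine Cxcl12 binds the receptor Cxcr4, and in blood cells this sets off actin filament growth and migration.

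The samples were total RNA of Ba/F3, a pro-B line of the mouse that grows on the cytokine IL3, on 8 Agilent arrays with 1 dye. The 4 groups of 2 arrays were FLT3/ITD cells with Cxcl12, FLT3/ITD cells without it, wild type FLT3 cells with Cxcl12 and wild type FLT3 cells without it. FLT3 is a receptor tyrosine kinase, and ITD, an internal tandem duplication found in acute myeloid leukaemia, makes it active without its ligand. The FLT3/ITD cells carried the N51 allele on slide 1 (set 1) and the N78 allele on slide 2 (set 2), so allele and slide cannot be told apart. All cells were kept in medium with 10% FBS and 0.1 ng/ml IL3, then washed and held for 4 h at 37 °C in medium with 0.5% BSA, with 100 ng/ml murine Cxcl12 or with none. Each group lay at the same position on both slides, so position and group cannot be told apart either. The 2 arrays of a FLT3/ITD group thus hold different alleles, so different cells, while nothing in the labels says that the 2 arrays of a wild type group came from separate cultures. The fit takes out the mean difference between the slides. The p-values thus measure how far the differences between groups disagree between slides, a spread that between wild type arrays may be technical.

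Levels are log2 processed intensities minus the array's 75th percentile, and every difference is on that log2 scale. Where 2 values stand for a group, the first is set 1 and the second set 2. A member is said to have risen or fallen only at a limma adjusted p under 0.05, over all 13848 genes. Markers that define a pro-B line were partly present: 8 of 13, among them Cd79a, Cd79b and Vpreb1, were measured, while Ebf1, Pax5, Igll1, Kit and Ikzf1 were above background on no array. None of 9 fibroblast markers and 1 of 10 muscle markers (Ckm) were measured. All 7 mast cell and basophil markers were measured, as were 2 of 4 platelet markers and 3 of 5 monocyte markers.

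The CArG box is the element that SRF binds, and its pattern of 10 letters reads the same on both strands. RefSeq promoter windows (GRCm38.p6, 250 bases before to 50 after each start) were found for 51 members, and 8 of these, or 15.7%, held a box. Over 27025 genes with a window, 488 held one, or 1.81%. Only exact matches of CC, 6 letters A or T, and GG were counted. A variant box, or one outside the window, would have been missed. The list was chosen for its link to SRF, so its higher share is not independent evidence. The stretches below show the upstream boxes, in capitals, of the 6 measured members that had one. They let the positions and letters be set beside the Cxcl12 differences given later.

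Cnn2 (chr10:79988490-79988599, plus strand): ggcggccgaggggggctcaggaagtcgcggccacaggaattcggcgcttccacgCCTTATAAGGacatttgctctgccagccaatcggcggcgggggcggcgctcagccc
Srf (chr17:46556163-46556272, minus strand): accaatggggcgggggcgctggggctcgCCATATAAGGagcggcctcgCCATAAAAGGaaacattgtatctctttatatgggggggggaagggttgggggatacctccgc
Vcl (chr14:20929148-20929227, plus strand): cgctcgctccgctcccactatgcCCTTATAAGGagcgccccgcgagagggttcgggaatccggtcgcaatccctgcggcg
Filip1l (chr16:57549132-57549241, plus strand): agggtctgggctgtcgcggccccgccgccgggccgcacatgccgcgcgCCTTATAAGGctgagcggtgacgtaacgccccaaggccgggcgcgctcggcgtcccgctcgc
Myl6 (chr10:128493010-128493119, minus strand): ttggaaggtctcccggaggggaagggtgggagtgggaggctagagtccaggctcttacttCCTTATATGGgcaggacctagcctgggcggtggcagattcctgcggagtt
Arpc4 (chr6:113377863-113377922, plus strand): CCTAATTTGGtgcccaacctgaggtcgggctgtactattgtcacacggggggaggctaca

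Cnn2, Vcl and Filip1l carried the same 10 letters. Counted from its first base, the box lay 56 bases before the start in Cnn2, 62 in Filip1l, 50 in Myl6, 227 in Vcl and 250 in Arpc4. Srf carried 2 boxes, 82 and 62 bases before its start. Among members that were not measured, Fhl2 and Myl9 also held a box.

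**Figure D1:**
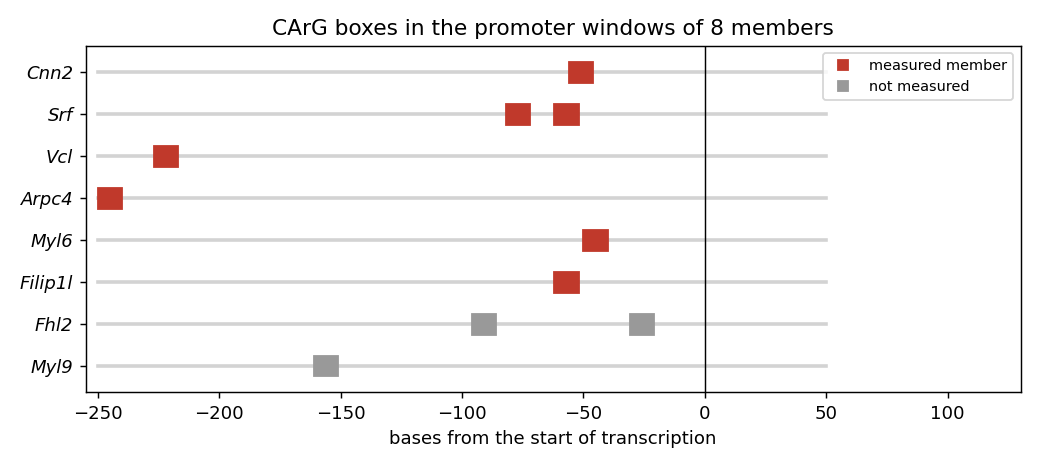
Position of each CArG box (10 bases wide) in the RefSeq windows of the 8 members that hold one, in bases from the start of transcription, from 250 before to 50 after. Measured members are red and members not measured are grey. All boxes lie upstream of the start, and those of Cnn2, Myl6, Filip1l and Srf lie within 82 bases of it.

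With Cxcl12, 1 member rose and none fell in the average over FLT3/ITD and wild type FLT3 cells. It was Cnn2, which encodes calponin 2, an actin-binding protein of non-muscle cells that steadies filaments. Over all genes tested 0.383% passed in that comparison, 21 higher and 32 lower. With FLT3/ITD, 1 member rose and none fell in the average over both Cxcl12 conditions, against 6.14% of all genes. It was Pfn1, profilin 1, which binds actin monomers and feeds them to growing filaments. In bulk RNA, more cells that express a gene and more RNA of it per cell cannot be told apart.

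Across the 47 members, the average Cxcl12 difference was above 0 for 34, with a median of 0.16, against a median of 0.01 over all genes, while under normexp, a background correction that starts from the raw foreground and local background, 16 were above 0 with a median of -0.20. That alternative moved bright genes as a whole. Of the 3462 brightest genes (mean level over all arrays, top 25%), which held 32 of the members, 55.9% had an average Cxcl12 difference above 0 with the processed signal and 9.10% with normexp. The median of these 3462 was 0.03 and -0.32 in these settings, and the median of the 32 members was 0.15 and -0.23. With quantile normalization 31 of the 47 members were above 0, and 35 were with the authors' normalized values.

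At an unadjusted p under 0.05, 13 of 47 members (27.7%) differed in the Cxcl12 average, against 14.8% of all genes, and all 13 were higher. Each kind of cell gives a Cxcl12 pair on each slide, hence 4 pairs of arrays. In 16 members (34%) the array with Cxcl12 was higher in all 4 pairs, against 15.6% of all genes. These were Srf, Mkl1, Vcl, Zyx, Cnn2, Tpm1, Tpm3, Tpm4, Flna, Myl6, Arpc1b, Arpc5, Coro1a, Coro1c, Cfl2 and Pfn1. Under normexp the average was below 0 in Mkl1, Tpm1, Tpm3, Myl6 and Arpc1b of these. In Filip1l and Capza1 it was lower in all 4, or 4.26% of members against 13.8% of all genes.

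**Figure D2:**
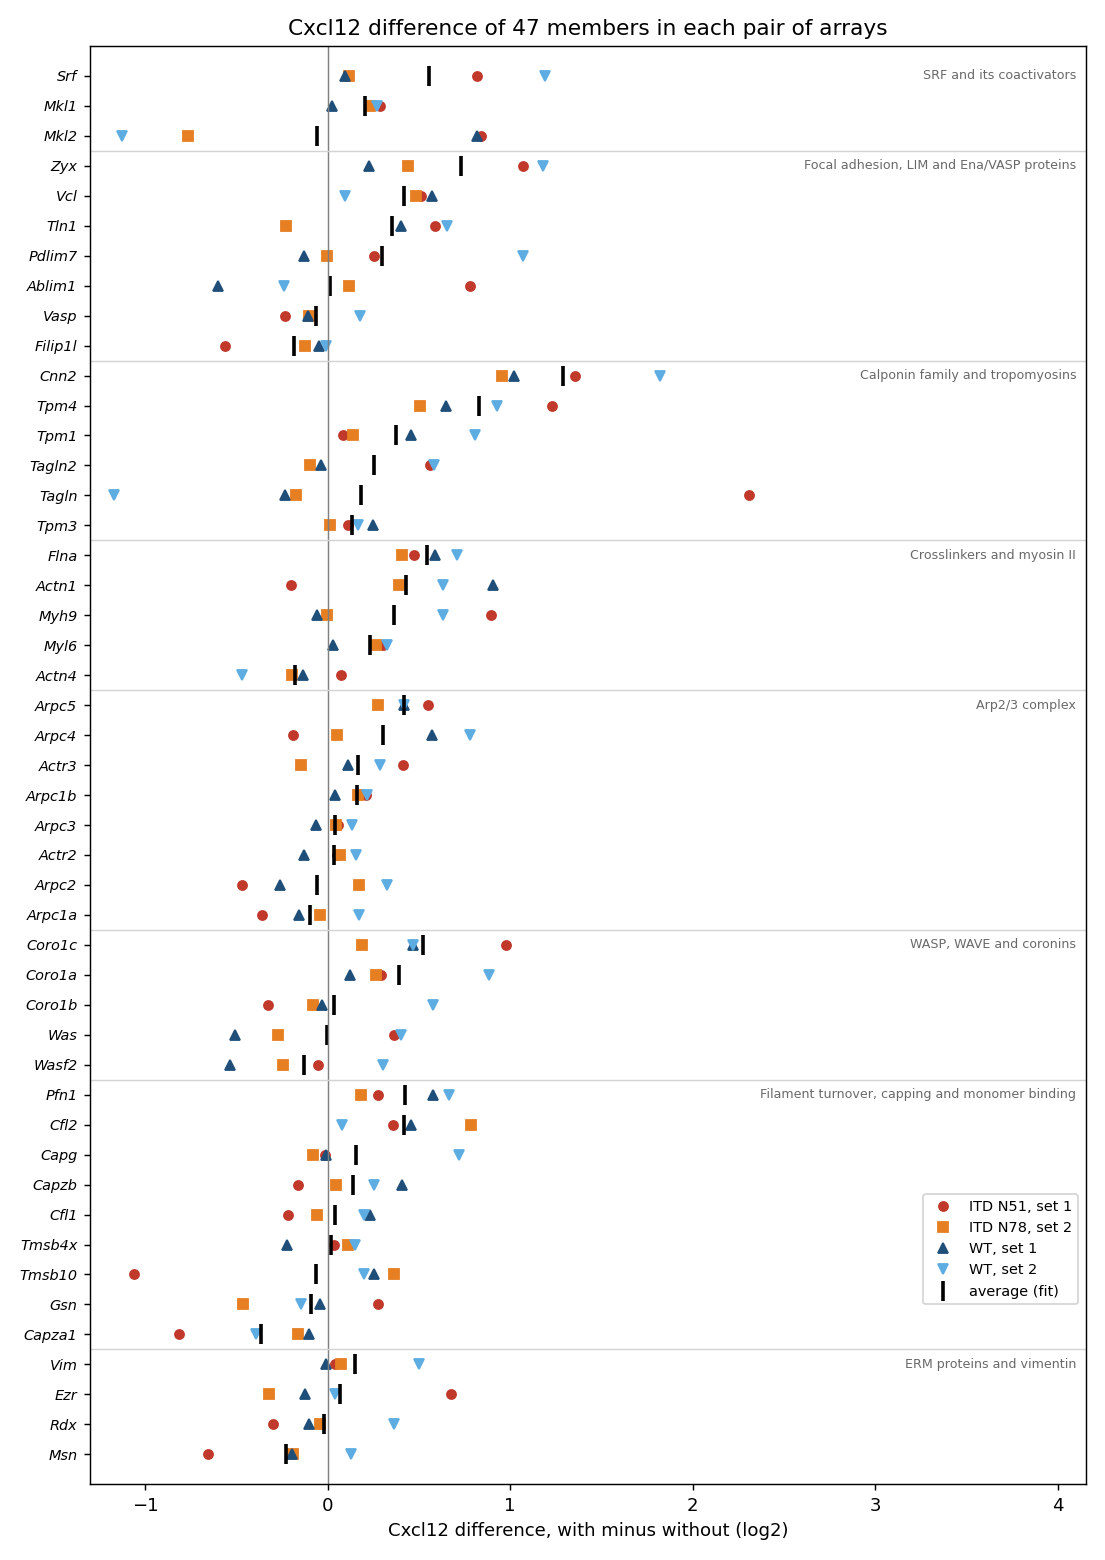
Cxcl12 difference (log2, with minus without) of the 47 measured members in each of the 4 pairs of arrays, by role. Red circles are FLT3/ITD N51 and orange squares FLT3/ITD N78, dark triangles wild type FLT3 on set 1 and light triangles wild type FLT3 on set 2, and black bars the fitted average. All 4 points of Cnn2, Tpm4 and Flna lie right of 0, while those of Tagln and Mkl2 spread to both sides.

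Srf, the transcription factor, had levels of 3.57 and 2.78 in FLT3/ITD cells with Cxcl12, against 2.75 and 2.67 without. In wild type FLT3 cells it had 2.95 and 3.49 with Cxcl12, against 2.85 and 2.30 without. Srf was thus higher with Cxcl12 in all 4 pairs, by 0.82 in N51 cells and 1.19 in wild type cells of set 2, and by 0.12 and 0.10 in N78 cells and in wild type cells of set 1. The average difference was 0.56 (SE 0.22, limma adjusted p 0.277), which did not pass.

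Mkl1, a coactivator of SRF, differed little. It had 3.57 and 3.08 in FLT3/ITD cells with Cxcl12, against 3.28 and 2.85 without, and 3.50 and 3.55 in wild type FLT3 cells with Cxcl12, against 3.48 and 3.28 without. Its average Cxcl12 difference was 0.20 (SE 0.15, limma adjusted p 0.589), and -0.14 under normexp. The related coactivator Mkl2 was dim, with -2.91 and -2.68 in FLT3/ITD cells with Cxcl12, against -4.06 and -3.67 in wild type FLT3 cells with Cxcl12. Without Cxcl12 it had -3.75 and -1.92 in FLT3/ITD cells, against -4.88 and -2.55 in wild type FLT3 cells. It was higher in FLT3/ITD cells in all 4 pairs, by 0.98 on average (SE 0.37, limma adjusted p 0.136), without passing. Under normexp that average was -0.11. With Cxcl12 it was higher on set 1 (0.83) and lower on set 2 (-0.94).

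Of 7 measured genes of focal adhesions and LIM domain proteins, none passed in either average. Zyx, zyxin, which gathers at stressed filaments and adhesions, had 6.12 and 4.78 in FLT3/ITD cells with Cxcl12, against 5.05 and 4.34 without. In wild type FLT3 cells it had 5.08 and 5.34 with Cxcl12, against 4.85 and 4.16 without. Zyx was higher with Cxcl12 in every pair, by 0.73 on average (SE 0.23, limma adjusted p 0.184). Vcl, vinculin, which links talin to actin, was also higher in every pair, by 0.42 on average (SE 0.16, limma adjusted p 0.258). A dimmer kept Vcl probe, above background on all 8 arrays, had 0.27, with 0.55 on set 1 and -0.01 on set 2.

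Tln1, talin 1, which joins integrins to actin, had 3.77 and 3.77 in FLT3/ITD cells with Cxcl12, against 2.71 and 4.18 in wild type FLT3 cells with Cxcl12. Without Cxcl12 it had 3.18 and 4.00 in FLT3/ITD cells, against 2.31 and 3.53 in wild type FLT3 cells. Dimmer kept Tln1 probes, both above background on all 8 arrays, had average ITD differences of 1.11 and 0.85. The ITD difference of the brightest probe was 0.96 on set 1 with N51 and 0.03 on set 2 with N78. It was 0.50 on average (SE 0.23, limma adjusted p 0.206). It passed only without the N78 array with Cxcl12, with a difference of 0.79 (limma adjusted p 0.0461).

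Filip1l, related to a protein that binds filamin A, was lower in FLT3/ITD cells in all 4 pairs. It had -0.05 and -0.40 in FLT3/ITD cells with Cxcl12, against 0.61 and 0.33 in wild type FLT3 cells with Cxcl12. Without Cxcl12 it had 0.51 and -0.27 in FLT3/ITD cells, against 0.66 and 0.34 in wild type FLT3 cells. The average was -0.54 (SE 0.16, limma adjusted p 0.0821). Its average Cxcl12 difference was -0.19, with a CArG box like that of Cnn2 in its window. Pdlim7, Ablim1 (above background on 6 of 8 arrays) and Vasp, which binds filament ends, had average Cxcl12 differences of 0.30, 0.01 and -0.07.

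All 6 measured genes of the calponin family and the tropomyosins had an average Cxcl12 difference above 0, with a median of 0.31, and 3 of the 6 did under normexp, with a median of 0.11. Cnn2 had 2.74 and 2.77 in FLT3/ITD cells with Cxcl12, against 1.38 and 1.82 without. In wild type FLT3 cells it had 3.08 and 3.99 with Cxcl12, against 2.06 and 2.17 without. The 4 arrays with Cxcl12 all lay above the 4 without. Its probe matches chr10:79457785-79457844 (mm9, from the array files). Cnn2 rose 2.44-fold on average, by 1.29 (SE 0.18, limma adjusted p 0.0335).

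Within each kind of cell the Cxcl12 difference of Cnn2 did not pass: 1.15 in FLT3/ITD cells (SE 0.25, limma adjusted p 0.297) and 1.42 in wild type FLT3 cells (SE 0.25, limma adjusted p 0.153). The difference between these was -0.27 (SE 0.36, limma adjusted p 0.99999). Cnn2 also had a lower level in FLT3/ITD cells in all 4 pairs, by -0.65 on average (SE 0.18, limma adjusted p 0.0663), which did not pass. The call with Cxcl12 was lost under normexp (0.89, limma adjusted p 0.487), with no filter on dim probes (1.29, limma adjusted p 0.149), with no slide block (1.29, limma adjusted p 0.99995) and without any 1 of 5 arrays. These were both FLT3/ITD arrays without Cxcl12, the N51 array with Cxcl12 and both wild type arrays of set 2, and over all 8 single-array omissions the difference ran from 1.11 to 1.46 and its adjusted p to 0.232.

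Tpm4, a tropomyosin that lies along filaments of non-muscle cells, came next. It had 5.06 and 3.27 in FLT3/ITD cells with Cxcl12, against 3.83 and 2.76 without. In wild type FLT3 cells it had 4.57 and 3.36 with Cxcl12, against 3.92 and 2.43 without. It was higher in each pair, by 0.51 to 1.23, while set 1 lay above set 2 throughout. The average of 0.83 (SE 0.16, limma adjusted p 0.0704) did not pass. Without the N78 array with Cxcl12 it passed, at 0.96 (limma adjusted p 0.0426).

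Tpm1 and Tpm3, further tropomyosins, had average Cxcl12 differences of 0.37 and 0.14, higher in all 4 pairs. These are the values of the brightest probe. A dimmer kept Tpm1 probe, above background on all 8 arrays, went the other way, by -0.57 (-0.40 on set 1, -0.74 on set 2). A further kept Tpm1 probe had 0.32. The calponin-like Tagln2 had an average Cxcl12 difference of 0.25. Its relative Tagln, transgelin, a known SRF target in smooth muscle, was 2.31 higher with Cxcl12 in N51 cells but -0.17 in N78 cells, and -0.24 and -1.17 in wild type FLT3 cells. The Cxcl12 difference of Tagln was 1.77 greater in FLT3/ITD than in wild type FLT3 cells (SE 0.77, unadjusted p 0.0475, limma adjusted p 0.99999), which did not pass. Its average ITD difference of 0.48 passed only without the N78 array with Cxcl12, at 1.05 (limma adjusted p 0.0420).

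**Figure D3:**
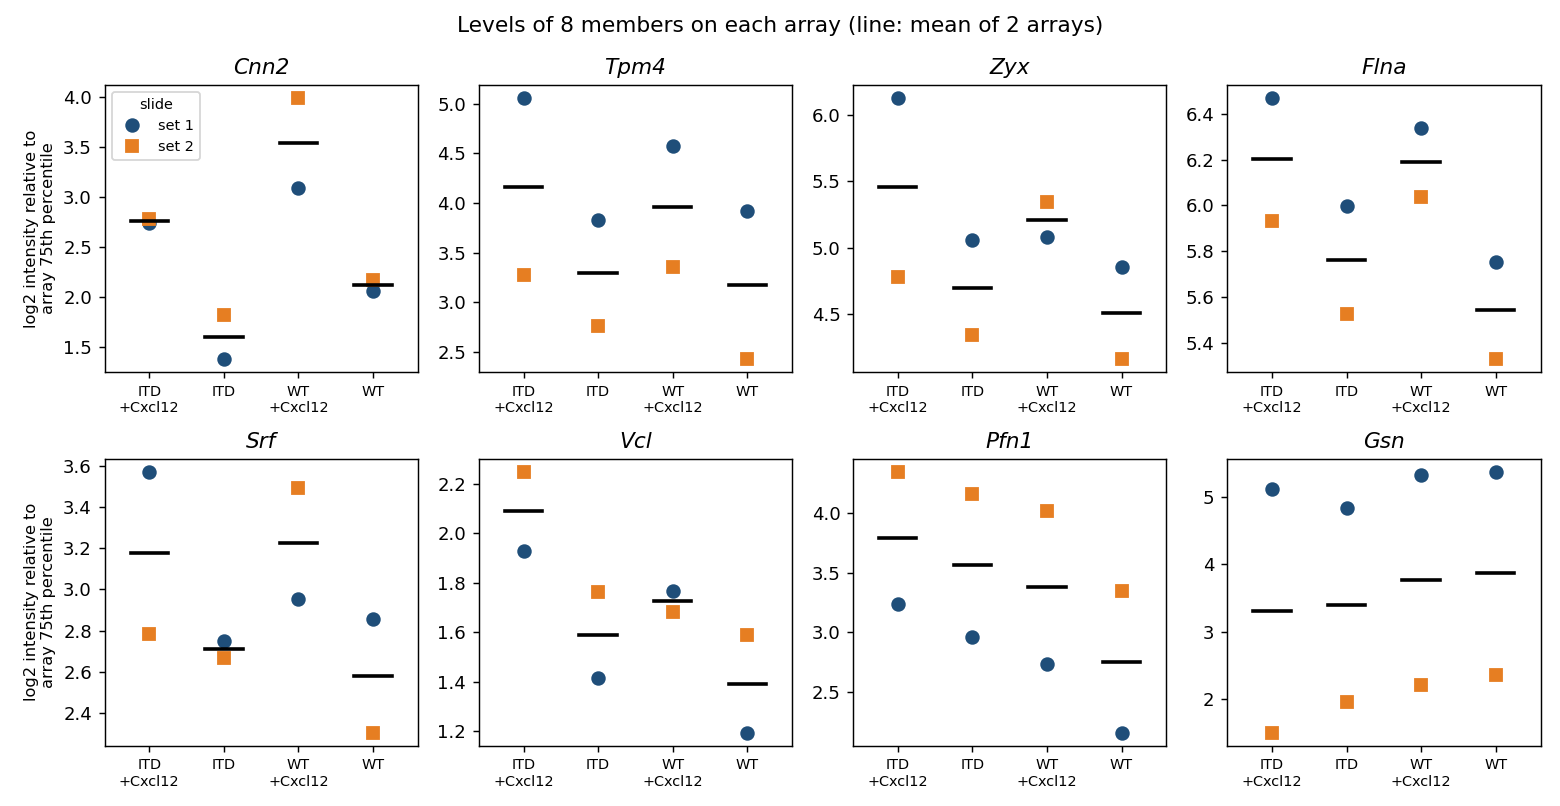
Levels (log2 processed intensity minus that of the array's 75th percentile) of 8 members on all 8 arrays, circles for set 1 and squares for set 2, with a line at each mean of 2 arrays. ITD is FLT3/ITD and WT wild type FLT3. Cnn2 lies above its levels without Cxcl12 on each array with it, Pfn1 differs between sets by more than between groups, and Gsn separates by slide.

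Filamin A, Flna, which crosslinks filaments into a network, was among the members higher with Cxcl12 in all 4 pairs. With Cxcl12 it was higher by 0.47 and 0.41 in FLT3/ITD cells and by 0.59 and 0.71 in wild type FLT3 cells. The average was 0.54 (SE 0.12, limma adjusted p 0.0877), which did not pass. These are the values of the brightest Flna probe. A dimmer kept probe, above background on all 8 arrays, had 0.04 and was lower with Cxcl12 in both wild type pairs. A further kept Flna probe had 0.51. Of 5 measured crosslinker and myosin genes 4 were above 0 with Cxcl12, with a median of 0.37, and 3 were under normexp, with a median of 0.02. Actn1 (alpha-actinin 1) had 0.43, Myh9 (the heavy chain of non-muscle myosin IIA) 0.37 and Myl6 (a myosin light chain) 0.23, while Actn4 (alpha-actinin 4) had -0.18. With FLT3/ITD, Myl6 had -0.33 (SE 0.11, limma adjusted p 0.0942), lower in all 4 pairs. It passed with quantile normalization (-0.40, limma adjusted p 0.0312) and was 0.09 under normexp.

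The Arp2/3 complex, which branches filaments, was measured in all 8 of its listed genes, and none passed in either average. The average Cxcl12 differences ran from -0.10 in Arpc1a to 0.42 in Arpc5, with a median of 0.10 and 6 of 8 above 0, against 1 of 8 and -0.29 under normexp. Arpc5 was higher in every pair (SE 0.15, limma adjusted p 0.245). Arpc4, with a CArG box at the far end of its window, had 0.30. Its Cxcl12 difference was lower in FLT3/ITD than in wild type FLT3 cells by -0.74 (SE 0.29, limma adjusted p 0.99999), at an unadjusted p of 0.0327.

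Of 5 measured genes that switch the Arp2/3 complex on or shape its networks, none passed. The coronins Coro1c and Coro1a were higher with Cxcl12 in all 4 pairs, by 0.52 (SE 0.20) and 0.39 (SE 0.16). The third coronin, Coro1b, had 0.04, the Wiskott-Aldrich protein Was -0.00 and the WAVE subunit Wasf2 -0.13.

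Among 9 genes of filament turnover, Pfn1 rose with FLT3/ITD. It had 3.23 and 4.35 in FLT3/ITD cells with Cxcl12, against 2.74 and 4.02 in wild type FLT3 cells with Cxcl12. Without Cxcl12 it had 2.96 and 4.16 in FLT3/ITD cells, against 2.16 and 3.35 in wild type FLT3 cells. On each slide both FLT3/ITD arrays lay above both wild type arrays, while set 2 lay above set 1. The rise was 1.52-fold, or 0.61 (SE 0.13, limma adjusted p 0.0348), with 0.65 on set 1 and 0.57 on set 2. The direction held under all 7 other processing settings, but the call was lost under normexp (0.96, limma adjusted p 0.229), quantile normalization (0.50, limma adjusted p 0.0570), with no filter on dim probes (0.61, limma adjusted p 0.0725), with no slide block (0.61, limma adjusted p 0.999) and without any 1 of the 8 arrays, where it ran from 0.58 to 0.64 at adjusted p of 0.0546 to 0.168.

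Markers of other blood cells moved with FLT3/ITD. Of 7 mast cell and basophil markers 3 fell (Mcpt8, Mcpt4 and Cma1) and all 7 were below 0, with a median of -1.51. Their summed level, relative to the array's 75th percentile on a linear scale, was 14.6 to 57.0 on FLT3/ITD arrays and 159 to 252 on wild type arrays. Among pro-B markers Ptprc and Csf2rb2 fell (2 of 8 measured), with sums of 263 to 374 on FLT3/ITD arrays and 410.2 to 617 on wild type arrays. Of 3 monocyte markers measured Lyz2 rose and 2 were below 0, with a list median of -0.34, of 2 platelet markers Gp1ba rose and both were above 0, and the 1 muscle marker, Ckm, rose. All samples were of the Ba/F3 line, and the labels name no other cells. The part of these marker changes, or of cells that carry the markers, in the Pfn1 result was not tested. Pfn1 was also higher with Cxcl12 in all 4 pairs, by 0.43 on average (SE 0.13, limma adjusted p 0.189), where none of the 7 mast cell markers passed and their median was -0.47. Their summed level was 14.6 to 232 with Cxcl12 and 26.8 to 252 without. The sum of the 8 pro-B markers was 366 to 617 with Cxcl12 and 263 to 411 without, none of the 8 passed and their median difference was 0.11. The part of either list in the Cxcl12 results was not tested.

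Gsn, gelsolin, which severs filaments when calcium rises, had 5.11 and 1.50 in FLT3/ITD cells with Cxcl12, against 5.33 and 2.21 in wild type FLT3 cells with Cxcl12. Without Cxcl12 it had 4.84 and 1.96 in FLT3/ITD cells, against 5.37 and 2.35 in wild type FLT3 cells. The slides differed far more than the groups, and Gsn was lower in FLT3/ITD cells in all 4 pairs, by -0.46 on average (SE 0.16, limma adjusted p 0.113). Capza1, a subunit of the capping protein, had 1.42 and 0.79 in FLT3/ITD cells with Cxcl12, against 2.23 and 0.95 without. In wild type FLT3 cells it had 2.34 and 0.32 with Cxcl12, against 2.44 and 0.71 without. Its average Cxcl12 difference was -0.37 (SE 0.23, limma adjusted p 0.501), the lowest of the members.

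Cofilin 2, Cfl2, had 0.42 with Cxcl12, higher in all 4 pairs, and -0.46 with FLT3/ITD (SE 0.18 each, limma adjusted p 0.312 and 0.141). Cfl1, the cofilin of most non-muscle cells, had 0.04 and -0.06. The average Cxcl12 differences of Capg, Capzb, Tmsb4x and Tmsb10, which cap filaments or hold monomers, were 0.16, 0.14, 0.02 and -0.06.

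Of the 3 ERM genes, which tie filaments to the membrane, and the intermediate filament gene Vim, none passed. Msn, moesin, had 1.22 and 2.07 in FLT3/ITD cells with Cxcl12, against 1.87 and 2.26 without. In wild type FLT3 cells it had 1.99 and 2.29 with Cxcl12, against 2.18 and 2.17 without. It was lower with Cxcl12 in 3 of the 4 pairs, by -0.23 on average (SE 0.17, limma adjusted p 0.601). Ezr, Rdx and Vim had 0.07, -0.02 and 0.15. A dimmer kept Rdx probe, above background on all 8 arrays, had -0.46 (-0.92 on set 1, 0.00 on set 2). A further kept Rdx probe, above background on 2 arrays, had -1.47.

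**Figure D4:**
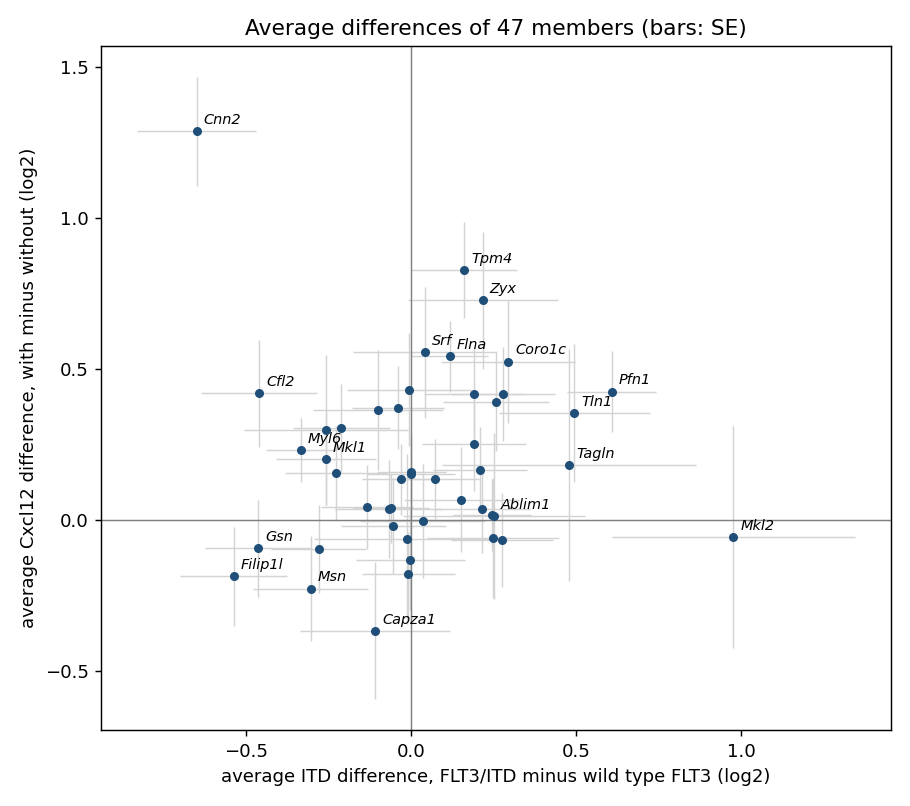
Average ITD difference (x axis) against average Cxcl12 difference (y axis) of the 47 measured members, both log2, with bars of 1 SE. Both come from the same 8 arrays. Cnn2 stands highest, at 1.29 with Cxcl12 and -0.65 with FLT3/ITD, and Mkl2 farthest right, at 0.98 with FLT3/ITD.

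With FLT3/ITD 24 of 47 members were above 0, with a median of 0.00, against -0.01 over all genes, while 39 were above 0 under normexp, with a median of 0.35, 20 with quantile normalization, with a median of -0.07, and 35 with the authors' tables, with a median of 0.13 beside 0.12 over all genes. Under normexp the median over all genes was 0.03, and the 32 members among the 3462 brightest genes had a median of 0.42, against 0.48 over these 3462, of which 92.7% were above 0. Mkl2, Vcl and Pfn1 were higher in FLT3/ITD cells in all 4 pairs, or 6.38% of members against 16.5% of all genes. Filip1l, Cnn2, Myl6, Arpc1a and Gsn were lower in all 4, or 10.6% against 17.5%. Under normexp the average was below 0 in Mkl2 and above 0 in Myl6 and Arpc1a. At an unadjusted p under 0.05, 7 members differed in the average (14.9%, against 26.2% of all genes).

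Single comparisons, each of 2 arrays with 2, gave no called member in limma. FLT3/ITD without Cxcl12 had 0.505% of all genes called and 3 members at an unadjusted p under 0.05, against 12.3% of genes. FLT3/ITD with Cxcl12 had 0.838% called and 4 members at that level, against 18.2%. Cxcl12 in wild type FLT3 cells had 0.065% called and 7 members at that level, against 7.15%. Cxcl12 in FLT3/ITD cells had 0% called and 6 members at that level, against 10.4%. The test of whether the Cxcl12 difference depends on the kind of cell also called 0% of genes, with 2 members, Tagln and Arpc4, at an unadjusted p under 0.05, against 1.7% of genes.

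By CArG box, the 6 measured members that hold one had a median Cxcl12 difference of 0.36, and 39 with a window and no box had 0.14. Under normexp the 6 had 0.01, beside a median of -0.20 over all 47 measured members. Over all 146 tested genes with a box the median was 0.02, with 3 called higher and 1 lower, and over the 137 that are neither members nor actins it was -0.00. The 3 higher were Cnn2 and the actins Acta1 and Actc1. Of 6 actin genes measured, Acta1, Actc1 and Acta2 rose with Cxcl12, by 2.30, 1.72 and 1.07 (limma adjusted p 0.0300, 0.0127 and 0.0468). In that average 5 of the 6 were above 0 and 1 was below, at -0.73. The sets of 6 members with a box and 39 without are small, and the difference between them was not tested.

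Genes around this machinery were read from further lists. Of 24 measured of 37 other SRF targets 18 were above 0 with Cxcl12, with a median of 0.25. Over all genes 7078 of 13848 were above 0, with a median of 0.01. Values of this list under normexp are not given here. Among these targets the immediate-early gene Ier3 fell, by -1.78 (limma adjusted p 0.0170). None passed as higher, though the highest of them, at 2.70, was also the highest of all genes tested. With FLT3/ITD, Itga5, an integrin chain, fell by -0.79 (limma adjusted p 0.0382). Csrp2, a LIM domain gene, was above background on 3 of 4 FLT3/ITD arrays and on no wild type array. Csrp2 thus passed the filter only through a FLT3/ITD group, the side where it was brighter. Its level was at least 1.36-fold higher there (limma adjusted p 0.0157, computed with wild type values below background). Of 39 other actin regulators, Abi3 rose by 0.88 with FLT3/ITD and the adhesion scaffold Bcar1 fell by 1.30 with Cxcl12.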

How the data were processed

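Total RNA of 8 Ba/F3 samples was labelled with Cy3 and measured on 1-colour Agilent arrays, 4 groups with 2 arrays each. Per the file headers, the deposited processed intensity had been background-subtracted and detrended on each array by Agilent Feature Extraction (9.5.1.1 for set 1, 10.7.3.1 for set 2) and was not scaled between arrays. The authors' normalized tables also hold intensity values. Each of their columns lay within 0.01 log2 of 1 array's processed signal after centring for 99.7 to 100% of probes. How the authors scaled them is not given in the sources used here, and they served as an alternative.

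From the processed intensity, log2 was taken and the value of the 75th percentile of its array subtracted, which on the linear scale lay between 937 and 1109 on slide 1 and between 367 and 600.0 on slide 2. Control spots were dropped and outlier spots (93 to 203 an array) set to missing, and no spot was saturated. Of 41174 probes, 21126 were kept because both arrays of some group read them well above background, as 49.2 to 54.9% of spots an array were. The number of arrays limits the precision. Gene names are those of the set 2 files, and the brightest kept probe stood for its gene. Probe coordinates are those of mm9 in these files. Of 20 members with several kept probes, 15 had the same sign in all for the Cxcl12 average, and Arpc3, Capzb, Tpm1, Vasp and Was did not. For the ITD average 14 of the 20 had the same sign in all.

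All 8 arrays were fitted in limma 3.58.1 (R 4.3.3), with 4 group means, the slide as block and an eBayes intensity trend, which left 3 residual degrees of freedom. P-values were adjusted by Benjamini-Hochberg over 13848 genes and features in each of 7 comparisons, with a threshold of 0.05. Pairing was by slide, which the headers name: deviations from the group means correlated at 0.730 to 0.878 between arrays of a slide. A fold against arrays not above background is a lower bound against the lowest signal well above background there.

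Values on all 8 arrays are given for called members, for up to 3 members highest and 3 lowest in each average with the same direction in both sets, and for Srf, Mkl1 and Mkl2. The members, role groups and lists were chosen with earlier results of these data known, and 2 of the lists are not reported here. The values of the brightest 25% of genes were added after the data were examined. Alternatives were normexp background correction (offset 50), quantile normalization, the authors' tables, other filters, the mean of a gene's probes, no block and each array left out.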

Additional observations from a re-analysis of the deposited data

Results flagged for a closer look

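In 2 of the 47 members both FLT3/ITD pairs moved opposite to both wild type FLT3 pairs with Cxcl12. How many of all genes do so was not counted, so whether 2 members is many or few cannot be said. Ablim1, an actin-binding LIM protein, had Cxcl12 differences of 0.78 and 0.12 in FLT3/ITD cells, against -0.60 and -0.24 in wild type FLT3 cells, a difference of 0.87 (SE 0.55, limma adjusted p 0.99999). It was well above background on 6 of 8 arrays. Cfl1, cofilin 1, had -0.22 and -0.06 in FLT3/ITD cells, against 0.23 and 0.20 in wild type FLT3 cells, a difference of -0.35 (SE 0.23, limma adjusted p 0.99999). Neither difference passed the test of the interaction. In another kept Cfl1 probe the pattern was absent, with N78 levels of 4.07 with Cxcl12 and 3.92 without.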

How the results depend on the processing

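The calls of the main fit, Cnn2 with Cxcl12 and Pfn1 with FLT3/ITD, kept their sign under every alternative. Myl6, called with FLT3/ITD under quantile normalization (-0.40), was 0.09 under normexp. The Cxcl12 average called 0 members under normexp, with no filter on dim probes and with no replicate block, in place of 1, and 0 to 2 when single arrays were left out. The ITD average called 0 members in the same 3 settings, in place of 1, and 0 to 2 when single arrays were left out, and under quantile normalization its 1 called member was Myl6. ITD with Cxcl12 called 0 to 1 when single arrays were left out, against 0, the 1 being Tagln without the N78 array with Cxcl12. The other comparisons called 0 members throughout. The pairing by slide thus carries both calls: with no replicate block no gene was called in any comparison. Over all genes the Cxcl12 average called 53, against 85 under normexp, 31 with quantile normalization, 152 with the authors' tables, 0 with no dim filter, 93 with probes above background on all 8 arrays and 0 to 208 with single arrays left out. The ITD average called 850, against 360 under normexp, 184 with no dim filter, 1249 with the authors' normalized values and 155 to 942 with single arrays left out. ITD without Cxcl12 called 70 (0 to 174 over all settings) and ITD with Cxcl12 116 (0 to 219). Cxcl12 called 9 in wild type cells (0 to 13) and 0 in FLT3/ITD cells (0 to 57), and the interaction 0 (0 to 20). The authors' tables moved the median ITD difference of all genes to 0.12, from which the members' 0.13 is to be read. The cause of these differences was not tested. Dim members such as Mkl2, Ablim1 and Coro1c are limited by signal over background.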
